A study of Mus musculus with 8 samples.

Results

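Alad, Hdhd3 and Glo1 are 3 of the 34980 genes counted in layer IV of the mouse visual cortex, the cortical layer that receives the input from the thalamus. The genes were picked by name, with their levels in these libraries already known, so their levels and differences are given as a description and carry no test. Total RNA was sequenced from hand-dissected layer IV of B6D2 mice, a cross of the B6 and DBA/2 strains. The groups were Otx2 +/- mice at postnatal day 30 (P30), also written Otx2 (+/GFP), Otx2 +/+ (wild-type) mice at P100, and wild-type mice at P30. Each group had 2 libraries, from 4 pooled mice per condition. Nothing in the labels says that the duplicates were separate pools, so how much of the spread between them is technical is not known. The 2 Otx2 +/- libraries differed in choroid plexus RNA, as given below. Otx2 +/- mice at P100 were not analysed here.

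Alad encodes delta-aminolevulinate dehydratase, the cytosolic enzyme that joins 2 molecules of aminolevulinate into porphobilinogen early in haem synthesis. Glo1 encodes glyoxalase 1, which with glutathione converts methylglyoxal, a reactive by-product of glycolysis, and its level in the brain has been studied in relation to anxiety-like behaviour in mice. Hdhd3 encodes a phosphatase-like protein of the haloacid dehalogenase (HAD) superfamily. Inbred strains are known to differ in the copy number of the segments that carry Alad and Glo1, with the duplicated forms found in DBA/2. Read counts hold neither copy number nor alleles, so the strain origin of these loci in each pool was not tested.

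On mm10, Alad (ENSMUSG00000028393) lies on the minus strand at chr4:62509169-62519918. Hdhd3 (ENSMUSG00000038422) lies downstream of it on the same strand at chr4:62499008-62503467, with 5701 bases between the genes. Glo1 (ENSMUSG00000024026) lies on the minus strand at chr17:30584936-30626871. Each gene was represented by its transcript with the most reads, which for Alad is an annotated processed transcript of 11 exons and 1769 bases, for Hdhd3 a transcript of 2 exons and 1205 bases, and for Glo1 a nonsense-mediated decay transcript of 7 exons and 2024 bases. None of the 3 genes shares exon bases with another annotated gene.

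The 250 bases before each RefSeq start (GRCm38.p6, all on the minus strand) are shown as promoter windows of the 3 genes whose levels are compared. The RefSeq starts are not those of the counted transcripts, which begin at chr4:62519881 for Alad, chr4:62502276 for Hdhd3 and chr17:30612612 for Glo1. The Hdhd3 window thus covers the first bases of its counted transcript, while those of Alad and Glo1 lie some way upstream of theirs. They lie at chr4:62520064-62520313 for Alad, chr4:62502201-62502450 for Hdhd3 and chr17:30612660-30612909 for Glo1, the windows of Hdhd3 and Glo1 falling inside the longer gene bodies given above. Capitals mark matches on either strand to the letters of the GC box (GGGCGG), the CAAT box (CCAAT), the TATA box (TATAAA), the E-box (CACGTG), the cyclic AMP response element core (TGACG) and the antioxidant response element core (TGACNNNGC).

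Alad: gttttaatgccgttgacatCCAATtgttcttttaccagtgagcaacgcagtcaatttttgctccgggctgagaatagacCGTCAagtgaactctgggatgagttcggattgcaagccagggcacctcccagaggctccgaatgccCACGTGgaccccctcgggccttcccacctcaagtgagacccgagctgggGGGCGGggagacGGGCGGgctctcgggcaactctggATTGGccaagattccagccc
Hdhd3: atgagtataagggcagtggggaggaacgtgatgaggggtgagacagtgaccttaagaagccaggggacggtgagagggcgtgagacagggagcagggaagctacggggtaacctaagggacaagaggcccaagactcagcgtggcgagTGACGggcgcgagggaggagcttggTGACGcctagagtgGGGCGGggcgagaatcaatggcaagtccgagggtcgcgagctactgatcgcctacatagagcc
Glo1: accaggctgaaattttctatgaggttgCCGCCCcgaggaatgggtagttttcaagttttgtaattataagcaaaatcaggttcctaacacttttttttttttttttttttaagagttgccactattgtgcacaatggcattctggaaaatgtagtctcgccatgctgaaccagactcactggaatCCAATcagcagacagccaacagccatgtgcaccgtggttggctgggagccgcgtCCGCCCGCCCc

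GGGCGG matched 2 times in the Alad window, 1 time in that of Hdhd3 and 3 times in that of Glo1, where 2 of the matches overlap; 32.7% of the 32851 RefSeq promoter windows of this length hold it. CCAAT matched 2 times for Alad and 1 time for Glo1, against 33.8% of windows with a match. TGACG matched 1 time for Alad and 2 times for Hdhd3, against 17.8% of windows, and CACGTG matched 1 time for Alad, against 6.0%. TATAAA, present in 12.4% of windows, and TGACNNNGC, present in 10.2%, matched in none of the 3. GC content was 58.4% for Alad, 60.8% for Hdhd3 and 46.4% for Glo1, beside a median of 52.4% over all windows. A match describes letters only and is not a binding site.

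The libraries held 11016841 to 15308781 counts over genes, and 15841 genes had enough counts for a test, the 3 genes among them. Levels are CPM, the counts of a gene relative to the library total after edgeR's scaling by the trimmed mean of M values. Otx2 itself had 0 and 4.75 CPM in the Otx2 +/- libraries and 0 in all 4 wild-type libraries, so it does not check the genotype in this tissue. The Otx2 +/- libraries held 785 and 924 CPM of Xist, the RNA of the inactive X, and the wild-type ones no more than 0.639 CPM. The Y-linked Ddx3y stood at 2.48 and 1.04 CPM in the Otx2 +/- libraries and at 146 CPM or more in every wild-type one, so that genotype and the sex of the mice cannot be told apart in any difference below. Rorb, a marker of layer IV neurons, had 497 and 523 CPM in the Otx2 +/- libraries and 509 to 581 CPM in the wild-type libraries. Of the other layer IV markers checked, Kcnh5 and Plcxd2 overlapped with the wild-type libraries only through those at P100. Both lay below the wild-type P30 libraries. Kcnh5 had 250 and 268 CPM in the Otx2 +/- libraries, against 291 and 285 CPM in the wild-type P30 libraries. Plcxd2 had 775 and 790 CPM in the Otx2 +/- libraries, against 894 and 932 CPM in the wild-type P30 libraries. Rorb overlapped with the wild-type P30 libraries, which had 509 and 581 CPM. Scnn1a, Cux1 and Rspo1 lay below all 4 wild-type libraries in both Otx2 +/- libraries. Scnn1a, for one, had 4.22 and 4.43 CPM in the Otx2 +/- libraries, against 5.84 to 10.1 CPM in the wild-type libraries. Whether the share of layer IV cells differed was not tested. The second Otx2 +/- library also stood apart by choroid plexus RNA, with 584 CPM of Ttr against 0 CPM in the first and at most 0.0724 CPM in the wild-type libraries.

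Alad was higher in both Otx2 +/- libraries. It had 15.7 CPM (234 counts) and 22.3 CPM (343 counts) in the Otx2 +/- libraries. The wild-type libraries had 8.61 CPM (119 counts) and 10.6 CPM (121 counts) at P100, and 7.58 CPM (83 counts) and 8.83 CPM (127 counts) at P30. Both Otx2 +/- values thus lay above all 4 wild-type values, the lower of them 1.47 times the highest wild-type value, while the wild-type values spanned 1.41-fold. Means were 19.0 ± 4.70 CPM in Otx2 +/- mice, 9.63 ± 1.44 CPM in wild-type mice at P100 and 8.20 ± 0.885 CPM in wild-type mice at P30 (SD, n = 2 each). The fitted log2 difference of Otx2 +/- from wild type at P30 was 1.20 with a standard error (SE) of 0.18, or 2.30-fold. The 2 Otx2 +/- libraries themselves differed 1.42-fold, a gap (on log2 CPM with a prior count of 2) that 8.94% of the tested genes equalled or passed between these libraries, and without the second one the difference was 0.93 (SE 0.20). In bulk tissue, more cells of a type that holds a transcript and more transcript per cell cannot be told apart.

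Hdhd3 had the lowest level of the 3 genes, and its difference was above that of Alad except without the second wild-type P30 library. It had 5.43 CPM (81 counts) and 6.12 CPM (94 counts) in the Otx2 +/- libraries. The wild-type libraries had 1.38 CPM (19 counts) and 1.23 CPM (14 counts) at P100, and 2.56 CPM (28 counts) and 1.53 CPM (22 counts) at P30. The lower Otx2 +/- value was 2.12 times the highest wild-type value, and the wild-type values spanned 2.08-fold. Means were 5.77 ± 0.488 CPM in Otx2 +/- mice, 1.30 ± 0.101 CPM in wild-type mice at P100 and 2.04 ± 0.726 CPM in wild-type mice at P30 (SD, n = 2 each). The log2 difference of Otx2 +/- from wild type at P30 was 1.53 (SE 0.27), or 2.89-fold. Its counts were few: the exact Poisson 95% interval, which covers counting error only, ran from 1.70 to 3.69 CPM in the first wild-type P30 library and from 0.958 to 2.32 CPM in the second. With the first of these left out the difference from wild type at P30 was 1.91, and with the second left out it was 1.17, where that of Alad was 1.33.

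Glo1 was the most abundant of the 3 genes and differed least. It had 54.5 CPM (813 counts) and 46.2 CPM (710 counts) in the Otx2 +/- libraries. The wild-type libraries had 33.6 CPM (464 counts) and 38.6 CPM (439 counts) at P100, and 34.3 CPM (376 counts) and 38.4 CPM (553 counts) at P30. Both Otx2 +/- values lay above the wild-type values, the lower of them by 1.20-fold, and the 4 wild-type values spanned 1.15-fold. Means were 50.4 ± 5.85 CPM in Otx2 +/- mice, 36.1 ± 3.57 CPM in wild-type mice at P100 and 36.4 ± 2.91 CPM in wild-type mice at P30 (SD, n = 2 each). The log2 difference of Otx2 +/- from wild type at P30 was 0.47 (SE 0.11), or 1.38-fold. It was 0.34 (SE 0.14) without the first Otx2 +/- library and 0.58 (SE 0.14) without the second.

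**Figure D1:**
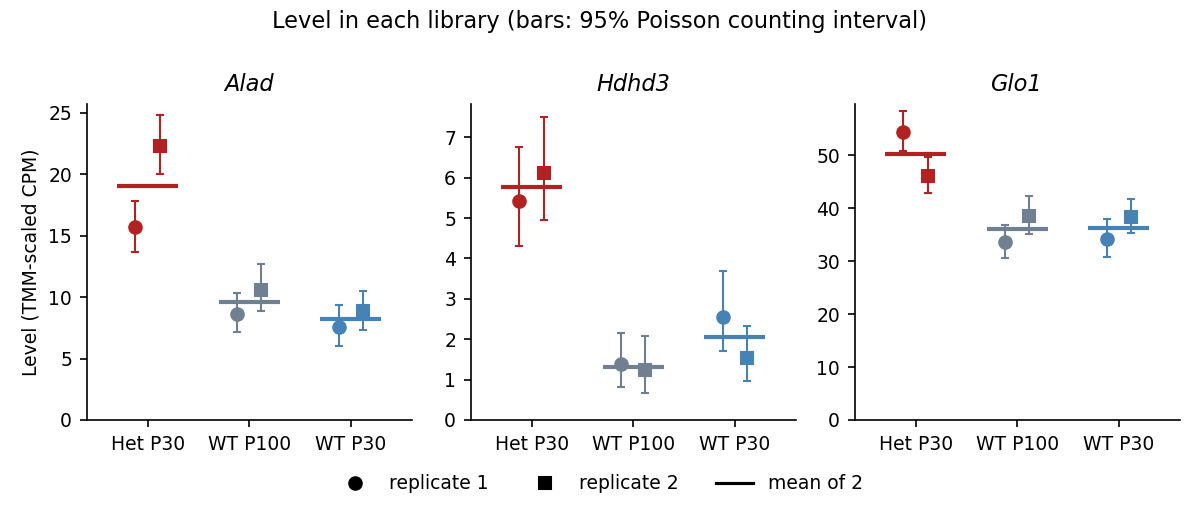
Level of Alad, Hdhd3 and Glo1 in each library, in CPM, for Otx2 +/- P30, wild-type P100 and wild-type P30 mice, with points for libraries, error bars for the 95% Poisson counting interval and lines for the mean of 2. For each gene both Otx2 +/- points lie above all 4 wild-type points, the lower Otx2 +/- point being 1.47, 2.12 and 1.20 times the highest wild-type point for Alad, Hdhd3 and Glo1.

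Both Otx2 +/- libraries above all 4 wild-type libraries was a common outcome, found for 1646 of the 15841 tested genes (10.4%), and 24.5% of the tested genes were above the wild-type P30 libraries without overlap. The 3 genes were chosen with these values known, so their share is not set against that background. Ordered from the highest log2 difference of Otx2 +/- from wild type at P30, Hdhd3 was 56th, Alad 111th and Glo1 968th of the tested genes. The median size of a log2 difference over all tested genes was 0.15.

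Between the ages of the wild-type mice, P100 against P30, Alad overlapped, with a log2 difference of 0.21 (SE 0.20), and so did Glo1, at -0.02 (SE 0.12). Hdhd3 at P100 lay below both P30 libraries, as did 25.7% of the tested genes, with a log2 difference of -0.60 (SE 0.35). That value was -0.22 without the first wild-type P30 library and -0.96 without the second. The 2 comparisons share the wild-type P30 libraries.

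Per kilobase of transcript, the scale on which genes can be set beside each other, the level in the Otx2 +/- libraries was 26.9 and 22.8 CPM for Glo1, 8.87 and 12.6 CPM for Alad, and 4.51 and 5.08 CPM for Hdhd3. In the wild-type libraries it ran from 16.6 to 19.1 CPM for Glo1, from 4.28 to 6.02 CPM for Alad and from 1.02 to 2.12 CPM for Hdhd3. The order Glo1, Alad, Hdhd3 held in all 6 libraries, with no overlap between neighbours in either set.

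The other transcripts of each gene gave like differences, though isoforms share exons, so their counts may share reads. The log2 ratio of mean CPM, Otx2 +/- over wild type at P30, was 1.21, 1.32 and 1.31 for the 3 transcripts of Alad. It was 1.50 and 1.33 for the 2 transcripts of Hdhd3, and 0.47 and 0.54 for the 2 of Glo1. The protein-coding Alad transcript ENSMUST00000030090 had 13.0 and 19.4 CPM in the Otx2 +/- libraries, against 6.03 and 6.95 CPM in the wild-type P30 libraries. The protein-coding Glo1 transcript ENSMUST00000167624 had 22.9 and 18.2 CPM in the Otx2 +/- libraries, against 14.2 and 14.1 CPM in the wild-type P30 libraries. In the authors' deposited table, the log2 fold changes of the chosen transcripts were 1.22 for Alad, 1.50 for Hdhd3 and 0.47 for Glo1.

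No other gene around the pair on chromosome 4 was called higher. Of the 13 other tested genes within 1 Mb of Alad, 0 were called higher in Otx2 +/- mice (edgeR quasi-likelihood test, Benjamini-Hochberg adjusted p under 0.05), beside 0.903% of all tested genes, and 1 was called lower, beside 2.32%. Over all genes that is 143 higher and 368 lower, or 211 and 319 when scaled by library totals. At an unadjusted p under 0.05 the counts were 4 higher, beside 7.53% of all tested genes, and 2 lower, beside 9.80%, and DESeq2 and limma-voom also called 0 higher and 1 lower. The 4 were Pole3, Slc31a1, Slc31a2 and Zfp37. The median log2 difference of the 13 genes, Otx2 +/- from wild type at P30, was 0.06, with a range of -0.57 to 0.38, beside 0.00 over all tested genes. Pole3, an accessory subunit of DNA polymerase epsilon that lies 2730 bases upstream of Alad, had 12.3 and 13.0 CPM in the Otx2 +/- libraries, against 10.4 and 9.87 CPM in the wild-type P30 libraries. Its log2 difference was 0.32 (SE 0.14) with an edgeR adjusted p of 0.249. The nearest tested gene on the other side of Hdhd3 was Wdr31. It had 4.89 and 5.27 CPM in the Otx2 +/- libraries, against 4.66 and 5.21 CPM in the wild-type P30 libraries, so the groups overlapped. Between Wdr31 and Hdhd3 lies Bspry, which had too few counts for a test (8 and 10 in the Otx2 +/- libraries, 1 to 7 in the wild-type libraries).

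The copper transporter genes Slc31a1 and Slc31a2 were the 2 of these 13 genes with both Otx2 +/- libraries above all 4 wild-type libraries, beside 10.4% of all tested genes. Slc31a1 had 20.6 and 28.2 CPM in the Otx2 +/- libraries and 15.9 to 20.2 CPM in the wild-type libraries. The first Otx2 +/- library was thus close to the highest wild-type value. Its log2 difference from wild type at P30 was 0.32 (SE 0.14, edgeR adjusted p = 0.274). Slc31a2 had 8.45 and 8.98 CPM in the Otx2 +/- libraries and 6.48 to 8.01 CPM in the wild-type libraries, with a log2 difference from wild type at P30 of 0.38 (SE 0.17, edgeR adjusted p = 0.252). The gene called lower was Whrn, which encodes the scaffold protein whirlin of hair cell stereocilia and photoreceptors. Whrn had 43.8 and 42.7 CPM in the Otx2 +/- libraries, against 60.7 and 67.4 CPM in the wild-type P30 libraries, a log2 difference of -0.57 (SE 0.09, edgeR adjusted p = 0.00412).

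Between the ages, 1 of the 13 genes was called, higher at P100, beside 7.54% of all tested genes called in either direction (475 higher and 719 lower, or 707 and 560 when scaled by library totals). The called gene was the zinc finger gene Zfp37, with 34.6 and 32.8 CPM in wild-type mice at P100, against 26.2 and 25.8 CPM at P30 (log2 difference 0.38, SE 0.10, edgeR adjusted p = 0.0380). Leaving out any 1 library ended that call.

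On chromosome 17 the gene next to Glo1 on one side is Btbd9, a BTB-domain gene known from association with restless legs syndrome. Btbd9 had 79.2 and 82.8 CPM in the Otx2 +/- libraries, against 84.9 and 84.6 CPM in the wild-type P30 libraries, with a log2 difference of -0.07 (SE 0.08). Dnahc8, an axonemal dynein heavy chain gene whose body overlaps that of Glo1 on the opposite strand, had 3.69 and 1.95 CPM in the Otx2 +/- libraries. The wild-type libraries had 0.869 and 1.23 CPM at P100, and 0.822 and 1.74 CPM at P30, so it too lay above all wild-type values in both Otx2 +/- libraries, as did Ftsjd2 and Rsph1, making 3 of the 17 other genes, beside 10.4% of all tested genes. The log2 difference of Dnahc8 from wild type at P30 was 1.08 (SE 0.41, edgeR adjusted p = 0.185), which did not pass the threshold.

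Of the 17 other tested genes within 1 Mb of Glo1, edgeR called 0 higher in Otx2 +/- mice, beside 0.903% of all tested genes, and 1 lower, beside 2.32%, with a median log2 difference of 0.04. At an unadjusted p under 0.05, 1 was higher, beside 7.53%, and 2 were lower, beside 9.80%, and DESeq2 called none of them while limma-voom called the same 1 lower. The called gene was Mdga1, a cell adhesion gene of developing cortex, with 9.32 and 10.4 CPM in the Otx2 +/- libraries, against 13.9 and 18.8 CPM in the wild-type P30 libraries (log2 difference -0.74, SE 0.16, edgeR adjusted p = 0.0246). Without 1 of 3 libraries, either Otx2 +/- library or the second wild-type P30 library, that call was lost. Mdga1 was also called lower at P100, with 8.11 and 7.13 CPM, against the same 13.9 and 18.8 CPM at P30 (log2 difference -1.10, SE 0.17, edgeR adjusted p = 0.00198). None of the 17 was called higher between the ages, and Mdga1 was the only 1 called lower, beside 7.54% of all tested genes called in either direction. At an unadjusted edgeR p under 0.05, 2 of the 17 were higher and 2 lower between the ages, beside 10.4% and 12.3% of all tested genes.

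**Figure D2:**
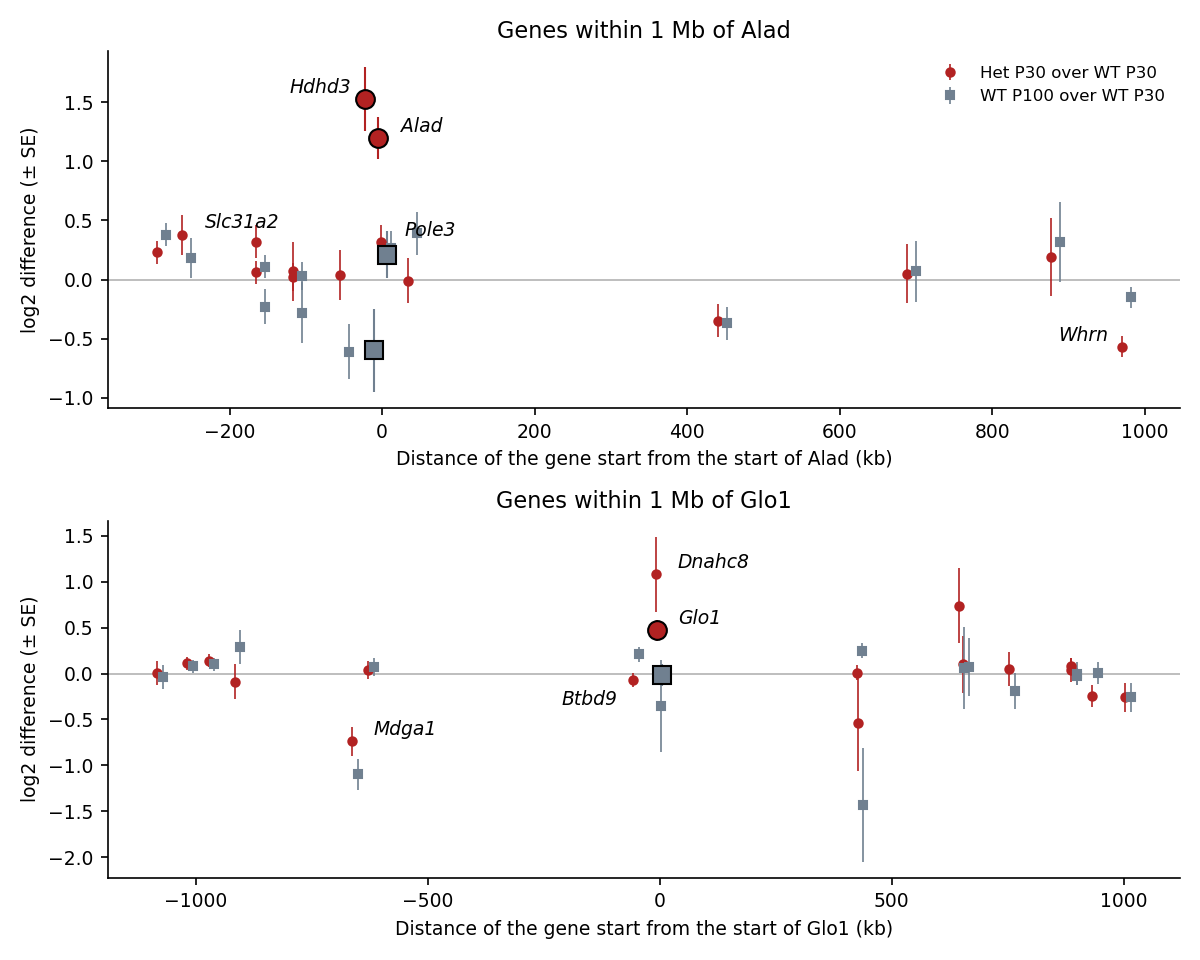
Log2 difference with SE (vertical axis) of each tested gene against the distance of its start from that of Alad (top) or Glo1 (bottom), in kilobases, for Otx2 +/- over wild type at P30 (circles) and wild-type P100 over P30 (squares), the 2 symbols of a gene being set slightly apart. Hdhd3 at 1.53 and Alad at 1.20 stand above the other 13 genes of their window, which reach 0.38. Glo1 at 0.47 lies below Dnahc8 at 1.08 and Rsph1 at 0.74, both of which had 3.69 CPM or less in every library.

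The other enzymes of haem synthesis are given next to Alad. Of the 8 tested, edgeR called 0 in either direction between Otx2 +/- and wild-type mice at P30, with a median log2 difference of -0.07, and 1 (Alas2) was lower at an unadjusted p under 0.05. With 0.903% of all tested genes called higher and 2.32% lower, and 7.53% and 9.80% at an unadjusted p, counts of 0 or 1 in a list of this size are near the background. Alas1, the housekeeping enzyme of the first step, whose product is the substrate of Alad, had 67.6 and 61.5 CPM in the Otx2 +/- libraries, against 57.3 and 54.6 CPM in the wild-type P30 libraries (log2 difference 0.21, SE 0.10, edgeR adjusted p = 0.324). Among the later enzymes, log2 differences were 0.19 for Uros, -0.10 for Urod, -0.11 for Cpox, 0.18 for Ppox and -0.03 for the final enzyme, Fech. Alas2, the erythroid form of the first enzyme, had 2.95 and 4.95 CPM in the Otx2 +/- libraries, against 6.85 and 5.70 CPM in the wild-type P30 libraries, and was not called (log2 difference -0.66, SE 0.25, edgeR adjusted p = 0.184).

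At P100, Alas2 was called lower, with 2.75 and 2.90 CPM, against the same wild-type values at P30 (log2 difference -1.14, SE 0.27, edgeR adjusted p = 0.0209), a call lost without either P100 library or the first P30 library. Alas2 shares 12.9% of its exon bases with Apex2, and how many of its counts come from those bases is not known. Of 17 tested genes of haem use and iron handling, edgeR called 0 between the genotypes, with 1 higher and 1 lower at an unadjusted p under 0.05 (beside 7.53% and 9.80% of all tested genes), and a median log2 difference of 0.07. It called 1 lower at P100, beside 7.54% of all tested genes called in either direction. That gene was Tfrc, the transferrin receptor of iron uptake, with 223 and 209 CPM at P100, against 304 and 291 CPM at P30, and a log2 difference of -0.46 (SE 0.08, edgeR adjusted p = 0.00263).

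Blood markers were low in all libraries. The 4 tested erythroid and blood genes had a median log2 difference of -0.52 between Otx2 +/- and wild-type mice at P30, and edgeR called 0 of them, with 2 lower at an unadjusted p under 0.05, beside 9.80% of all tested genes. Of the 9 markers listed 7 were in the files, Hbb-b1 being the highest, with 3.95 and 9.57 CPM in the Otx2 +/- libraries, 4.42 and 5.37 CPM in wild-type mice at P100 and 10.8 and 7.23 CPM at P30. The summed level of the list was 9.12 and 18.3 CPM in the Otx2 +/- libraries, 9.84 and 10.9 CPM in wild-type mice at P100 and 22.7 and 16.3 CPM in wild-type mice at P30, and its part in the level of Alad was not tested. The choroid plexus list, with 10 of 10 markers in the files, summed to 188 and 1049 CPM in the Otx2 +/- libraries, 157 and 171 CPM in wild-type mice at P100 and 197 and 216 CPM in wild-type mice at P30. Outside the second Otx2 +/- library nearly all of that sum was Enpp2. It had 185 CPM in the first Otx2 +/- library and 154 to 213 CPM in the wild-type libraries. Ttr and Otx2 were at 0 in the first Otx2 +/- library. Without the second, the log2 differences from wild type at P30 were 0.93 for Alad, 1.44 for Hdhd3 and 0.58 for Glo1, and the part of choroid plexus RNA in them was not tested further.

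The lists of Glo1 and Hdhd3 also gave counts near the background, which is 0.903% higher and 2.32% lower between the genotypes and 7.54% in either direction between the ages. Of the 17 other tested genes of methylglyoxal detoxification and glutathione metabolism, edgeR called 0 in either comparison, with a median log2 difference of 0.01 for Otx2 +/- against wild type at P30 and 0.00 for P100 against P30. At an unadjusted p under 0.05, 1 was higher between the genotypes, beside 7.53% of all tested genes, and 0 differed between the ages. Hagh, glyoxalase 2, which completes the reaction that Glo1 begins, had a log2 difference of 0.01 between the genotypes. The gene higher between the genotypes at an unadjusted p was Gsr, which regenerates reduced glutathione, with 31.2 and 31.3 CPM in the Otx2 +/- libraries, against 26.5 and 26.1 CPM in the wild-type P30 libraries (log2 difference 0.25, SE 0.10, edgeR adjusted p = 0.234). Of 12 other HAD-family phosphatase genes tested beside Hdhd3, edgeR called 0 in either comparison, with medians of 0.03 between the genotypes and 0.07 between the ages. At an unadjusted p under 0.05, 1 was lower between the genotypes, beside 9.80% of all tested genes, and 1 was higher and 1 lower between the ages, beside 10.4% and 12.3% of all tested genes. The smallest p between the genotypes was that of Psph, which makes serine from phosphoserine, with 8.45 and 7.94 CPM in the Otx2 +/- libraries, against 11.2 and 9.94 CPM in the wild-type P30 libraries (log2 difference -0.36, SE 0.15, edgeR adjusted p = 0.238).

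**Figure D3:**
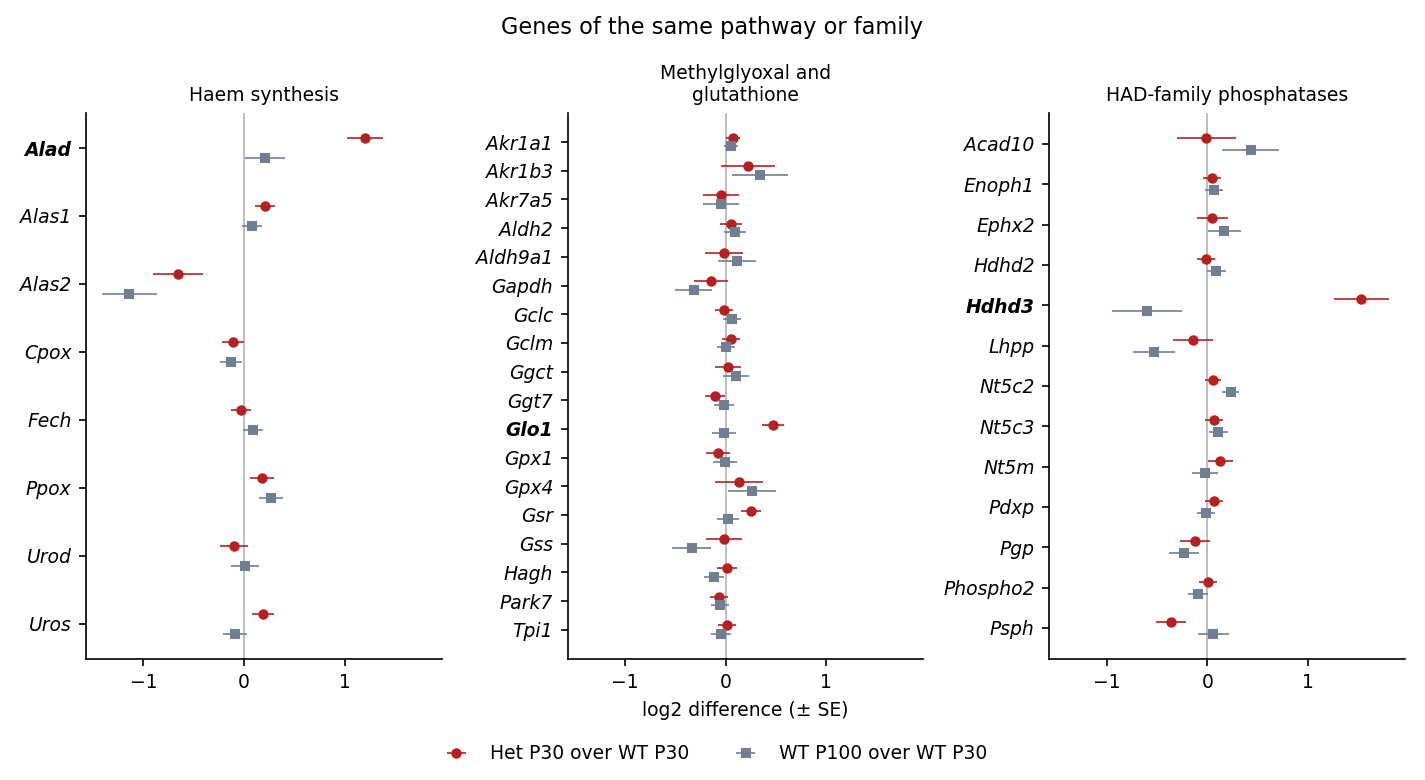
Log2 difference with SE (horizontal axis) of Alad, Glo1 and Hdhd3 and of other tested genes of their lists, for Otx2 +/- over wild type at P30 and wild-type P100 over P30. The members stand at 1.20, 0.47 and 1.53 for Otx2 +/- over wild type, while the other genes of the 3 lists have medians of -0.07, 0.01 and 0.03.

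Of 8 listed genes known to differ in sequence between B6 and DBA/2, 6 were tested. Of these, edgeR called 0 in either comparison, with 1 at an unadjusted p under 0.05 in each, lower between the genotypes (beside 9.80%) and higher between the ages (beside 10.4%), and median log2 differences were 0.01 for Otx2 +/- against wild type at P30 and 0.06 for P100 against P30. That 1 was Nnt, the mitochondrial transhydrogenase, with 28.0 and 22.7 CPM in the Otx2 +/- libraries, against 28.8 and 34.8 CPM in the wild-type P30 libraries (log2 difference -0.33, SE 0.14, edgeR adjusted p = 0.222). DESeq2 and limma-voom also called 0 between the genotypes in each of these 6 lists, the blood list included. Myo5a, the myosin gene of the dilute coat colour, had -0.07.

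Over the 6 libraries, Pearson's r of log2 CPM was 0.81 between Alad and Hdhd3, 0.83 between Alad and Glo1 and 0.79 between Hdhd3 and Glo1. These are descriptions over 6 libraries in 3 groups, in which all genes share the same libraries and depths, and among the 12922 genes compared the partners ranked between 315th and 774th. The genes most like Alad were Ap2m1 (r = 0.989), which encodes a clathrin adaptor subunit, Tldc1 (0.984) and Rnaseh2b (0.977), a subunit of ribonuclease H2. Those most like Hdhd3 were Ebf4 (0.994), Ctsa (0.992), the lysosomal cathepsin A, and Agpat4 (0.985). Those most like Glo1 were Pitrm1 (0.993), a mitochondrial peptidase, Idh3a (0.992), a subunit of the citrate cycle enzyme isocitrate dehydrogenase, and Diras1 (0.990). An r of at least 0.95 with the member was reached by 23 genes for Alad, 54 for Hdhd3 and 49 for Glo1, or 0.178%, 0.418% and 0.379% of those compared.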

How the data were processed

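Total RNA of hand-dissected layer IV was sequenced in 8 samples, of which the 6 libraries of Otx2 +/- P30, wild-type P100 and wild-type P30 mice were used, grouped by the labels. The deposited files hold, per the file headers, raw counts for 95533 transcripts. The mm10 build, HTSeq, Bowtie and DESeq 1.8.3 are listed in the submitters' processing notes, while tool settings and the use of strand are not given in the sources used here. Per the file headers, the authors' comparison tables hold group mean signal (counts divided by size factors) and log2 fold changes. They were used only where named.

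Each gene took its transcript with the highest total. The 9669 transcripts without a gene, 13.96% of counts, were left out. Counts were filtered (filterByExpr, minimum count 10, total 15), scaled by TMM and fitted over all 6 libraries by edgeR's quasi-likelihood method (edgeR 4.0.16 in R 4.3.3), with 3 residual degrees of freedom and Benjamini-Hochberg adjustment at 0.05. The SE is the log2 difference divided by the square root of its F value. Means ± SD are of CPM.

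The genes, gene lists and rules were chosen with earlier results of these data known. Named genes were the 3 genes, the nearest tested neighbours and called genes within 1 Mb, the list members called or with the smallest p, the 3 genes most like each by Pearson's r among genes with a mean of at least 1 CPM, and checks of the libraries. Gene positions came from GENCODE vM21, and promoters from RefSeq (GRCm38.p6), where all 3 genes matched. Alternatives were other scalings, filters, DESeq2 1.42.0, limma-voom (limma 3.58.1), only the 4 libraries of a comparison, counts summed over transcripts, a replicate block, and leaving out each library. PCR duplicates are not marked, so intervals cover counting error only. The values of 1 gene of the haem synthesis list are not reported here.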

Additional observations from a re-analysis of the deposited data

How the results depend on the processing

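The log2 differences of Alad, Hdhd3 and Glo1 between Otx2 +/- and wild-type mice at P30 stayed positive in all 16 alternatives. The genes were chosen with these values known, and both Otx2 +/- libraries lay above every wild-type library. Leaving out 1 library could therefore hardly change the sign. The cause of the shifts below was not tested. Leaving out 1 library gave 0.93 to 1.44 for Alad, 1.17 to 1.91 for Hdhd3 and 0.34 to 0.58 for Glo1 there, and 0.06 to 0.36, -0.96 to -0.22 and -0.12 to 0.08 for P100 against P30. It gave 52 to 116 genes called higher and 129 to 376 lower between the genotypes (143 and 368 with all libraries), 118 to 417 higher and 233 to 661 lower between the ages (475 and 719), 0 to 1 called within 1 Mb of Glo1 between the genotypes, and 0 to 0 within 1 Mb of Alad between the ages. Without a filter, 24034 genes were tested, with 392 higher and 728 lower between the genotypes, 764 higher and 1096 lower between the ages, and 2 called within 1 Mb of Glo1 between the genotypes. Library totals gave 2 there between the ages, 211 higher and 319 lower between the genotypes, and 707 higher and 560 lower between the ages, where the balance of calls turned. DESeq2 gave 86 higher between the genotypes, 289 higher between the ages and 0 called in the windows of Glo1 (genotypes) and Alad (ages). Counts summed over transcripts gave 71 higher and 192 lower between the genotypes, 297 higher between the ages and 0 in the same windows. Using only the 4 libraries compared gave 0 near Alad between the ages. The calls of Whrn, Tfrc and, between the ages, Mdga1 were kept in all 16 alternatives (highest adjusted p 0.0410, 0.0467 and 0.0344). That of Mdga1 between the genotypes was kept in 11 (adjusted p up to 0.251), of Alas2 in 13 (up to 0.123) and of Zfp37 in 7 (up to 0.157). The labels do not say whether replicate numbers pair the samples. Same-numbered libraries correlated at 0.00 to 0.10 in their deviations from the group means, and a shared batch was not tested. A replicate block gave 1.21 for Alad (SE 0.15, against 0.18 without the block), 1.53 for Hdhd3 and 0.47 for Glo1. With it, 192 genes were higher and 450 lower between the genotypes. Hdhd3 rests on 14 to 28 counts per wild-type library.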

Other observations

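Among the listed genes with known sequence differences between B6 and DBA/2, 2 differed widely between the libraries of 1 group, and they are named here after their values were seen. Gpnmb, a transmembrane glycoprotein gene mutated in DBA/2J, had 0.670 and 2.80 CPM in the 2 Otx2 +/- libraries. The gap was 3.60-fold on log2 CPM with a prior count of 2, which 25 of the 15841 tested genes (0.158%) equalled or passed between these libraries. The second of these libraries also held choroid plexus RNA (584 CPM of Ttr, against 0 CPM in the first). Its part in the gap was not tested. Gabra2, a GABA-A receptor subunit gene whose B6 form is known for low expression, had 29.7 and 64.8 CPM in the 2 wild-type P30 libraries, a gap of 2.18-fold on the same scale, which 261 tested genes (1.65%) equalled or passed. On that scale, Alad, Hdhd3 and Glo1 differed most between replicates in the Otx2 +/- libraries for Alad (1.42-fold), in the wild-type P30 libraries for Hdhd3 (1.61-fold) and in the Otx2 +/- libraries for Glo1 (log2 difference of the second from the first -0.24). Genes near Alad or Glo1 with too few counts for a test included Bspry, with 8 and 10 counts in the Otx2 +/- libraries, 7 and 1 in wild-type mice at P100 and 2 and 3 in wild-type mice at P30.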
